A study of Homo sapiens with 16 samples.

Results

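The genes described here encode the enzymes that load amino acids onto transfer RNAs, the aminoacyl-tRNA synthetases, in MDA-MB-231 cells, a human triple-negative breast cancer line. They were chosen by name: 19 enzymes of the cytosol, whose symbols end in 1 or are FARSA and FARSB, 16 enzymes of the mitochondrion, whose symbols end in 2, and 3 scaffold proteins of the multisynthetase complex, 38 genes of the 60719 gene identifiers counted. Parental 231 cells carried intact TXNIP, and 231:TKO cells were made from them with a TXNIP CRISPR/Cas9 knockout plasmid. Both were sequenced untreated, with 2 replicates each, and 48 hours after siRNA against Myc (siMyc) or non-targeting siRNA (siNT), with 3 replicates in each of the 4 siRNA groups, 16 libraries in all. All groups shared the same medium and serum. The study derived its TXNIP knockout 231 clones by single-cell isolation, so a difference between 231:TKO and parental 231 cannot be told apart from one between a clone and its parent. Replicates were called biological replicates with no more said of them, so p-values measure the spread between these libraries.

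Each synthetase recognises 1 amino acid, or in the case of EPRS1 a pair of them, and joins it to the matching transfer RNAs, which then feed the ribosome. The cytosol and the mitochondrion are served by separate nuclear genes for most amino acids, while KARS1 and GARS1 encode both the cytosolic and the mitochondrial form. Several cytosolic enzymes are held by AIMP1, AIMP2 and EEF1E1 in the multisynthetase complex. Myc, the transcription factor knocked down here, binds CACGTG (the E-box) with its partner Max, and ATF4, which drives the amino acid response, is known to activate many cytosolic synthetase genes through sites of the form TGATGNAA. TXNIP restrains glucose uptake.

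Promoter sequences were at hand for 33 of the 38 genes (RefSeq, GRCh38.p14; 250 bases before to 50 bases after each annotated start), and not for LARS1, VARS1, YARS1, AARS2 and VARS2. CACGTG, which reads alike on both strands, lay in a window of 5 of the 33 (15.2%), against 8.77% of the 27305 genes in the table. These were 1 of 16 cytosolic enzymes (IARS1), 3 of 14 mitochondrial enzymes (MARS2, EARS2 and CARS2) and 1 of 3 scaffolds (AIMP2). The matches of CARS2 and AIMP2 lay in the window of some but not all annotated starts, the more upstream start in CARS2 and the more downstream in AIMP2. All 5 genes were lower after siMyc in 231:TKO cells. Windows of the other 3 are shown because CACGTG lay in every window of these genes. Capitals mark CACGTG and, in IARS1, also a match to the ATF4 pattern.
MARS2 promoter, chr2:197705119-197705418, plus strand: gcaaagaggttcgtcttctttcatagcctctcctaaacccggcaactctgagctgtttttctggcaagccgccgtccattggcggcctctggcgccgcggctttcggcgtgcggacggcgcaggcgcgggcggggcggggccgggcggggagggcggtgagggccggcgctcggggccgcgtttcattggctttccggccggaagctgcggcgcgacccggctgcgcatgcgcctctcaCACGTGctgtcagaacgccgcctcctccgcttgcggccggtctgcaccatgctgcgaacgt
EARS2 promoter, chr16:23557301-23557600, minus strand: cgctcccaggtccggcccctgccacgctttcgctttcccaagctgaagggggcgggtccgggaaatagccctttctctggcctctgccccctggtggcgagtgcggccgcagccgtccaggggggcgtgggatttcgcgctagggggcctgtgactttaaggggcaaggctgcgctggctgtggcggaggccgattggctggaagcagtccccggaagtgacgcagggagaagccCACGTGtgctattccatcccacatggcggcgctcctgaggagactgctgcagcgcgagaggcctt
IARS1 promoter, chr9:92293648-92293947, minus strand: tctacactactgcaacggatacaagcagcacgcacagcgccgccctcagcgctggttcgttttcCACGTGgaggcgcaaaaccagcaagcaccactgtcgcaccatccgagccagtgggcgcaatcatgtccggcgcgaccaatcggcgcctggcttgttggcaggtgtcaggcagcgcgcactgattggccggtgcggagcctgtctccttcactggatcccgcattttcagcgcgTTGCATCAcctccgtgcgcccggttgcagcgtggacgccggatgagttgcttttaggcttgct
The first base of CACGTG lay at -11 in MARS2 and -186 in IARS1, counted from the annotated start. In EARS2 it lay at -15 from the start of the window shown and at position 11 after another annotated start.

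The ATF4 pattern TGATGNAA, sought on both strands, lay in a window of 7 of the 16 cytosolic enzymes (43.8%), 1 of the 14 mitochondrial enzymes (YARS2, 7.14%) and 0 of the 3 scaffolds, against 4.46% of all genes in the table. The 7 cytosolic genes all belonged to the 10 with a window on the list of known ATF4 targets, and none to the 6 cytosolic genes off that list. The known targets were listed by name, so this describes the list and is not independent evidence. The 7 stretches are shown because the pattern lay in a larger share of the cytosolic than of the mitochondrial enzymes, although most cytosolic enzymes lacked it. The match of YARS2 is not shown. In TARS1, GARS1 and CARS1 the match lay in the window of some but not all annotated starts. Capitals mark the match, which lies on the strand printed or, as in most of them, on the opposite one.
AARS1, chr16:70289670-70289709, minus strand: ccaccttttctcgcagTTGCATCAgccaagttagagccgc
CARS1, chr11:3057402-3057441, minus strand: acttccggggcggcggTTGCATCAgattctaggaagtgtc
GARS1, chr7:30594829-30594868, plus strand: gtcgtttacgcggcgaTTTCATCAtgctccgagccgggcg
IARS1, chr9:92293687-92293726, minus strand: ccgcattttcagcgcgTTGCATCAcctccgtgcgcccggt
MARS1, chr12:57488048-57488087, plus strand: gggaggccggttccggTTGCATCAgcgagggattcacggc
NARS1, chr18:57621799-57621838, minus strand: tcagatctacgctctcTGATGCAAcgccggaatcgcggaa
TARS1, chr5:33440951-33440990, plus strand: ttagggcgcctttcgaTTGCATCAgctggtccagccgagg
A match says only that these letters stand in the window, and binding was not measured here.

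Total counts per library lay between 18953668 and 59799444. Single reads were counted in untreated libraries and read pairs after siRNA treatment, so levels of untreated and siRNA-treated cells are given side by side and not compared. MYC lay between 122 and 144 CPM (counts relative to the library total, adjusted by edgeR's TMM factors) in 231:TKO+siNT and between 58.2 and 58.7 in 231:TKO+siMyc, a log2 fold change of -1.21 ± 0.06 (standard error). In parental 231 it lay between 123 and 130 CPM with siNT and between 63.3 and 66.9 with siMyc (-0.96 ± 0.09). TXNIP was at 290 and 291 CPM in untreated parental 231 and at 12.6 and 46.6 CPM in the 231:TKO replicates, which also lay far apart from each other in other genes. In every library the mesenchymal gene VIM lay between 1814 and 3088 CPM and the hormone receptor gene ESR1 at 0.313 CPM or less, as this line is known for. PGR, another hormone receptor gene, was at 0.080 CPM or less and ALB of liver at 0.063 CPM or less with siRNA. Both had too few counts in untreated libraries to be kept. Of the genes listed for other cell types, ACTA2 lay between 0.408 and 3.27 CPM and COL3A1 between 0.063 and 0.394 CPM. PTPRC was at 1.51 CPM or less, with 1.51 and 1.48 CPM in untreated parental 231 and 0.068 and 0.140 CPM in untreated 231:TKO. Epithelial genes were present too, with KRT8 between 237 and 1875 CPM and KRT18 between 196 and 697 CPM. EPCAM lay between 12.5 and 32.1 CPM, CDH1 between 0.272 and 9.30 CPM, and the receptor gene ERBB2 between 74.3 and 107 CPM. Parental 231+siNT replicate 1 and parental 231+siMyc replicate 3 stood apart from their groups together, with shifts that correlated at 0.897 over 13521 genes. Among the synthetases, IARS1 was lower than in the rest of its group by a log2 shift of -0.56 and -0.41 in these libraries and LARS2 by -0.45 and -0.44, while EEF1E1 was higher by 0.32 and 0.32 and AIMP2 by 0.28 and 0.29. Counts that rest on the pair are therefore also given without it or with a factor for it.

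Scaled by gene length, the cytosolic enzymes as a class stood above the mitochondrial ones in every group. The median of the group means, as length-scaled TPM (counts per base of gene, scaled to a common total), lay between 92.6 and 162 for the 19 cytosolic genes over the 6 groups, between 13.1 and 24.6 for the 16 mitochondrial genes and between 32.0 and 94.4 for the 3 scaffolds. TARS1, the threonine enzyme, ranked 1 of 38 in each of the 6 groups, from 336 ± 24.4 TPM (SD, n = 3) in parental 231+siMyc to 603 ± 26.3 TPM (n = 2) in 231:TKO. The length was that of all annotated exons of a gene, so this order depends on it. By CPM, which leave length out, IARS1 (524) stood above TARS1 (457) in untreated parental 231. By TPM, the order below TARS1 differed between groups. In untreated parental 231 the next was IARS1, for isoleucine, at 324 ± 6.08 TPM, and in parental 231+siNT it was FARSA, the alpha subunit of the phenylalanine enzyme, at 331 ± 11.4 TPM. The classes overlapped, since IARS2, the mitochondrial isoleucine enzyme, ranked between 2 and 6 of 38 in every group. FARSB, the beta subunit of the phenylalanine enzyme, was the lowest cytosolic gene in parental 231+siNT at 23.9 ± 1.79 TPM, whereas in untreated parental 231 the lowest was HARS1, for histidine, at 35.7 ± 1.23 TPM. HARS1 has a gene length of 14155 bases and FARSA one of 2434. By CPM, HARS1 (110) stood above FARSA (92.5) in untreated parental 231. Neighbours in the order, such as KARS1 at 147 ± 8.28 TPM and QARS1 at 147 ± 9.83 TPM in parental 231+siNT, did not differ beyond their spread. VARS2 ranked 38 of 38 in each group, at 0.553 TPM or less. It shares 63.0% of its exonic bases with another gene on the same strand, and SARS2 shares 48.2% and EEF1E1 18.8% (with the EEF1E1-BLOC1S5 readthrough), so reads of these genes could have been split or left out.

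The first question was how the synthetases responded to loss of Myc in cells without TXNIP. After siMyc in 231:TKO cells, 22 of the 38 genes were lower and 0 were higher, against 13.9% of all 22450 genes tested lower and 13.3% higher (edgeR's quasi-likelihood test, Benjamini-Hochberg adjusted p of at most 0.05). The fall reached both compartments: 12 of the 19 cytosolic enzymes, 7 of the 16 mitochondrial enzymes and all 3 scaffolds were lower. Median log2 fold changes were -0.20 for the cytosolic enzymes, -0.15 for the mitochondrial enzymes and -0.65 for the scaffolds, beside 0.01 for all genes tested. In bulk RNA, fewer cells and less RNA per cell cannot be told apart.

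The scaffolds fell together. AIMP2 (ENSG00000106305, chr7:6009255-6023834, plus strand, GRCh38) was at 45.9, 46.5 and 45.6 CPM in the 231:TKO+siNT replicates and at 28.8, 31.0 and 30.01 CPM in 231:TKO+siMyc. The groups did not overlap, and the log2 fold change was -0.65 ± 0.06 (adjusted p = 4.13e-08). EEF1E1 (ENSG00000124802, chr6:8073360-8102559, minus strand), also known as AIMP3, was at 29.6, 25.8 and 28.5 CPM with siNT and at 14.8, 16.8 and 21.4 CPM with siMyc. Its siMyc replicates were more spread but all below the siNT replicates, and the log2 fold change was -0.69 ± 0.10 (adjusted p = 1.07e-05). AIMP1, the third scaffold, fell less, with a log2 fold change of -0.30 ± 0.07 (adjusted p = 0.00291). Its siMyc values of 44.5, 48.5 and 56.5 CPM came close to the lowest siNT value, 56.6 CPM.

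Of the 7 enzymes of the complex, 5 were lower. IARS1, which charges isoleucine, was at 296, 336 and 322 CPM with siNT and at 215, 220 and 236 CPM with siMyc in 231:TKO cells, a log2 fold change of -0.54 ± 0.05 (adjusted p = 1.05e-07). LARS1, for leucine, went from 180, 173 and 185 CPM to 123, 123 and 136 CPM (-0.52 ± 0.05, adjusted p = 1.51e-07). KARS1, for lysine, went from 146, 135 and 139 CPM to 102.4, 104.05 and 108.6 CPM (-0.44 ± 0.05, adjusted p = 1.02e-06). In none of these 3 genes did the groups overlap. EPRS1, the joined glutamate and proline enzyme, had a log2 fold change of -0.28 ± 0.05 and MARS1, for methionine, one of -0.17 ± 0.06, the latter near the threshold (adjusted p = 0.046). RARS1 (-0.07 ± 0.05) and QARS1 (-0.06 ± 0.05), for arginine and glutamine, did not pass the test, so enzymes held in the same complex had unequal log2 fold changes.

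Of the other 12 cytosolic enzymes, 7 were lower, and FARSB and VARS1 had the lowest log2 fold changes of all 38 genes. FARSB (ENSG00000116120, chr2:222566899-222656092, minus strand) was at 51.2, 47.5 and 49.9 CPM in 231:TKO+siNT and at 26.8, 27.2 and 30.01 CPM in 231:TKO+siMyc. These groups lay far apart relative to their spread, with a log2 fold change of -0.85 ± 0.06 (adjusted p = 2.74e-09). VARS1 (ENSG00000204394, chr6:31777518-31795752, minus strand), the valine enzyme, was at 190, 210 and 196 CPM with siNT and at 122, 123 and 110 CPM with siMyc (-0.77 ± 0.06, adjusted p = 2.17e-09). FARSA, the partner subunit of FARSB, had a log2 fold change of -0.45 ± 0.06 and YARS1, for tyrosine, one of -0.40 ± 0.06. HARS1 for histidine (-0.28 ± 0.05), GARS1 for glycine (-0.20 ± 0.06) and NARS1 for asparagine (-0.14 ± 0.05) also fell. Not past the threshold were AARS1 for alanine (-0.07 ± 0.06), SARS1 for serine (-0.05 ± 0.05), CARS1 for cysteine (0.00 ± 0.06), TARS1 for threonine (0.01 ± 0.05) and WARS1 for tryptophan (0.02 ± 0.05). TARS1, ranked 1 of the 38 by TPM, was at 446, 467 and 458 CPM with siNT and at 444, 462 and 504 CPM with siMyc, so its groups overlapped.

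The 5 cytosolic enzymes of this set that did not pass were all on the list of known ATF4 targets. RARS1 and QARS1 of the complex, which did not pass either, were off it. Of the 12 cytosolic enzymes on that list, 7 were lower, with a median log2 fold change of -0.15, and of the 7 off it 5 were lower, with a median of -0.44. This difference between the lists was not tested. Split by the promoter pattern instead, 5 of the 8 genes with TGATGNAA in a window were lower, with a median of -0.15. Of the 25 without it, 14 were lower, with a median of -0.18. A further list of 15 genes held ATF4 and other ATF4 targets and stress genes outside the synthetases. Of these, 3 were lower and 0 higher after siMyc in 231:TKO cells, against the 13.9% of all genes that were lower: PSAT1, an enzyme of serine synthesis, at -0.79 ± 0.08, ATF4 itself at -0.22 ± 0.06, and SLC7A11, a cystine transporter, at -0.19 ± 0.06.

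Of the 16 mitochondrial enzymes, 7 were lower and none was higher. MARS2 (ENSG00000247626, chr2:197705369-197708395, plus strand), for methionine, was at 18.1, 16.3 and 17.0 CPM in 231:TKO+siNT and at 9.94, 11.6 and 9.94 CPM in 231:TKO+siMyc. The groups did not overlap, and the log2 fold change was -0.74 ± 0.08 (adjusted p = 8.09e-07). Its cytosolic counterpart MARS1 had the -0.17 given above. WARS2, for tryptophan, was at 15.6, 15.02 and 14.0 CPM with siNT and at 10.3, 11.1 and 10.3 CPM with siMyc (-0.52 ± 0.08, adjusted p = 3.2e-05). EARS2, for glutamate, was at 35.4, 35.5 and 32.2 CPM with siNT and at 25.1, 25.1 and 24.7 CPM with siMyc (-0.49 ± 0.06, adjusted p = 5.34e-06). YARS2, for tyrosine, was at 14.5, 15.1 and 13.7 CPM with siNT and at 12.2, 10.6 and 10.96 CPM with siMyc (-0.39 ± 0.08, adjusted p = 0.000963). IARS2 (-0.18 ± 0.05), LARS2 (-0.17 ± 0.06) and CARS2 (-0.17 ± 0.06), for isoleucine, leucine and cysteine, fell by less. The remaining 9 lay between -0.19 ± 0.09 (NARS2) and 0.10 ± 0.07 (RARS2), and RARS2, FARS2 and TARS2 were the 3 with a positive value. Without 231:TKO+siNT replicate 3, 4 of the 16 passed.

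Set side by side by amino acid, some cytosolic and mitochondrial enzymes had nearly the same log2 fold change, such as YARS1 (-0.40) and YARS2 (-0.39) for tyrosine, TARS1 (0.01) and TARS2 (0.01) for threonine, and NARS1 (-0.14) and NARS2 (-0.19) for asparagine. Others lay further apart, such as IARS1 (-0.54) and IARS2 (-0.18) for isoleucine and LARS1 (-0.52) and LARS2 (-0.17) for leucine, with the cytosolic gene lower, or MARS1 (-0.17) and MARS2 (-0.74) for methionine and WARS1 (0.02) and WARS2 (-0.52) for tryptophan, with the mitochondrial gene lower. Differences between enzymes were not tested. All 5 genes with CACGTG in a window were lower, with log2 fold changes from -0.74 (MARS2) to -0.17 (CARS2) and a median of -0.54, and 14 of the 28 without it were lower, with a median of -0.15. FARSB, with the lowest value, had no CACGTG in its window.

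**Figure D1:**
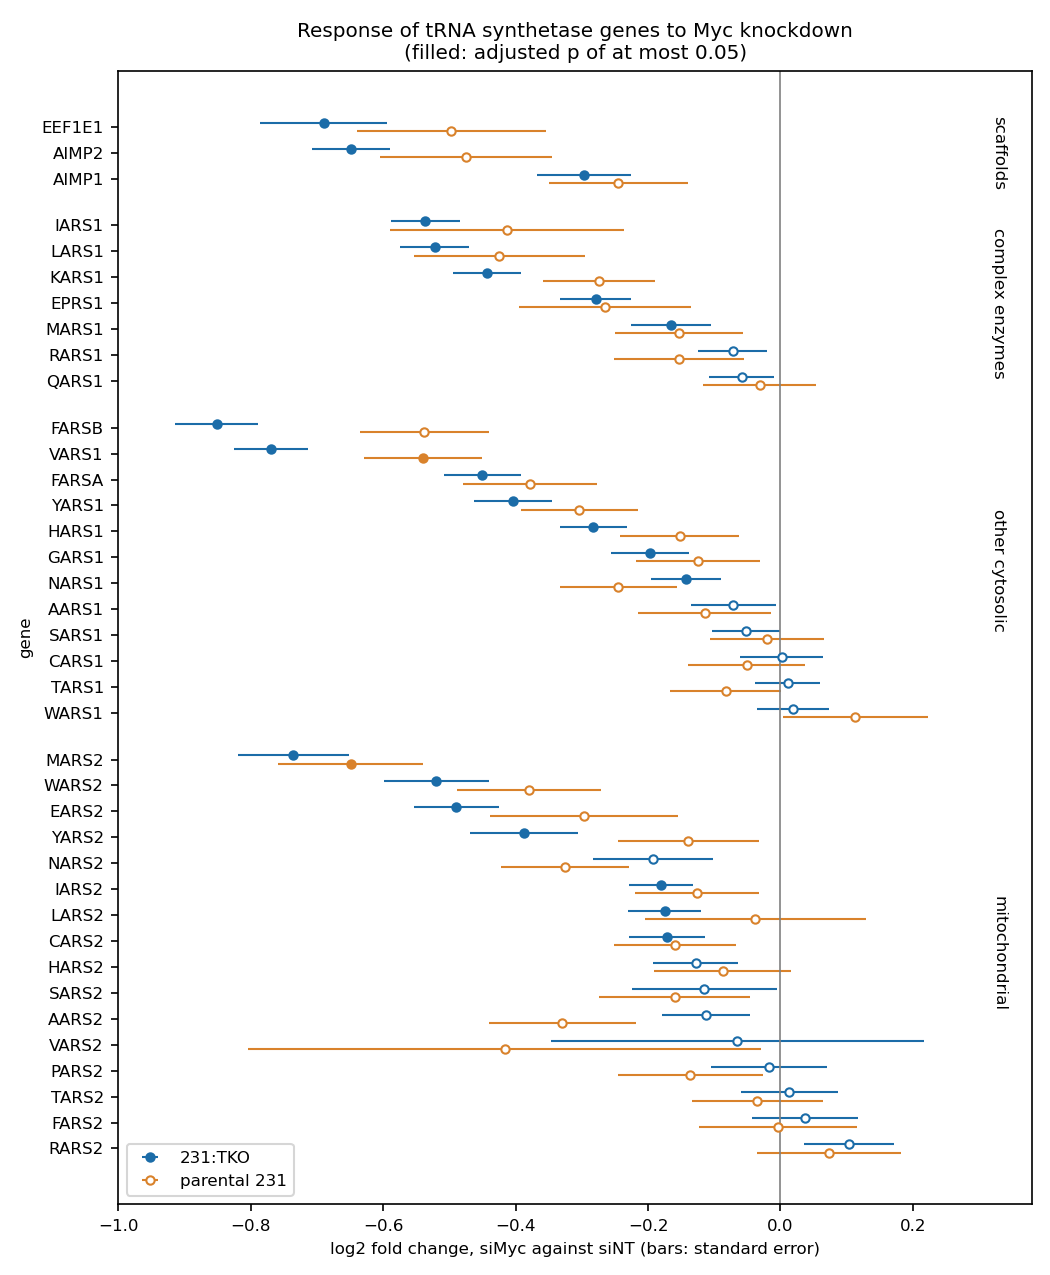
Log2 fold change of each of the 38 genes, siMyc against siNT, in 231:TKO (blue) and parental 231 (orange), grouped by class, with standard errors as bars and filled points past an adjusted p of 0.05. Most points lie left of 0 in both populations, and FARSB, VARS1, MARS2, EEF1E1 and AIMP2 lie farthest left in 231:TKO.

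Of other genes of tRNA charging and maturation, listed by name, 16 of 28 were lower and 0 higher after siMyc in 231:TKO cells. Over all genes tested, 13.9% were lower and 13.3% higher. The median log2 fold change of the list was -0.25, beside 0.01 for all genes tested. The count of this list in parental 231 cells is not given here. The lowest were ADAT2, a subunit of the enzyme that edits the tRNA wobble base, at -1.25 ± 0.12 (adjusted p = 1.0e-07), and PUS1, a tRNA pseudouridine synthase, at -0.86 ± 0.09. In parental 231 cells, ADAT2 was also lower (-0.88 ± 0.13, adjusted p = 0.0394), with the same value when the pair that stood apart had its own factor.

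The same knockdown in parental 231 cells asked whether the response depended on TXNIP. In that comparison VARS1 and MARS2 were the 2 of the 38 genes that passed, both lower, against 0.354% of 23728 genes lower and 0.24% higher. VARS1 was at 266, 284 and 302 CPM in parental 231+siNT and at 193, 194 and 197 CPM in parental 231+siMyc, a log2 fold change of -0.54 ± 0.09 (adjusted p = 0.0491). MARS2 was at 9.88, 10.0 and 9.60 CPM with siNT and at 6.28, 5.73 and 6.78 CPM with siMyc (-0.65 ± 0.11, adjusted p = 0.0494). In both genes every siMyc replicate lay below every siNT replicate. Unadjusted p was under 0.05 for 8 cytosolic enzymes, 4 mitochondrial enzymes and all 3 scaffolds, beside 3462 of all 23728 genes. DESeq2 called 5 cytosolic enzymes and 1 mitochondrial enzyme, and its share over all genes is not given here. VARS1 also passed without parental 231+siNT replicate 1, and neither gene passed when any other replicate was left out.

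The log2 fold changes themselves were negative in 36 of the 38 genes, with medians of -0.15 for the cytosolic enzymes, -0.15 for the mitochondrial enzymes and -0.48 for the scaffolds. WARS1 (0.11 ± 0.11) and RARS2 (0.07 ± 0.11) were the 2 exceptions. FARSB was at 45.4, 44.4 and 47.8 CPM with siNT and at 29.7, 31.1 and 33.8 CPM with siMyc, without overlap, and had a log2 fold change of -0.54 ± 0.10 (adjusted p = 0.0586). IARS1 shows the effect of the pair that stood apart: it was at 209, 301 and 317 CPM with siNT and at 224, 227 and 169 CPM with siMyc, where the first siNT and the last siMyc value belong to the pair. Its log2 fold change was -0.41 ± 0.18 (adjusted p = 0.332).

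With a factor for that pair, added after the data had been seen, 24 of the 38 genes were lower and 1 (WARS1, 0.12 ± 0.04) higher, against 13.1% and 13.7% of all genes. These were 14 cytosolic enzymes lower, 7 mitochondrial enzymes and 3 scaffolds. IARS1 then had the same log2 fold change with a smaller error (-0.41 ± 0.04, adjusted p = 7.74e-11), as did FARSB (-0.54 ± 0.05), VARS1 (-0.54 ± 0.04), MARS2 (-0.65 ± 0.09), LARS1 (-0.42 ± 0.04), AIMP2 (-0.47 ± 0.05) and EEF1E1 (-0.50 ± 0.05). With both libraries of the pair left out, 12 cytosolic enzymes, 6 mitochondrial enzymes and all 3 scaffolds were lower, and the share over all genes in that fit is not given here. The number of genes called in parental 231 cells thus turned on how these 2 libraries were treated.

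The difference between the responses was tested directly as an interaction over the 12 siRNA-treated libraries. 0 of the 38 genes passed (edgeR), and 0% of all 25812 genes were higher and 0% lower, with 1039 genes at an unadjusted p under 0.05. Among the 38 this held for FARSB alone, whose response was more negative in 231:TKO by a log2 difference of -0.28 ± 0.12 (unadjusted p = 0.0316, adjusted p = 1). VARS1 differed by -0.20 ± 0.11 and YARS2 by -0.22, in the same direction. With the factor for the pair, 0.395% of all genes were higher and 0.174% lower, and again 0 of the 38. DESeq2 called 0 of the 35 enzymes. The median standard error of these differences was 0.13, and 0.078 with the factor for the pair. In the latter fit 4 of the 38 genes had an unadjusted p under 0.05, beside 2374 of all 25812. Among the 38 the smallest adjusted p was that of FARSB, at 0.123 with a difference of -0.28 ± 0.09.

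**Figure D2:**
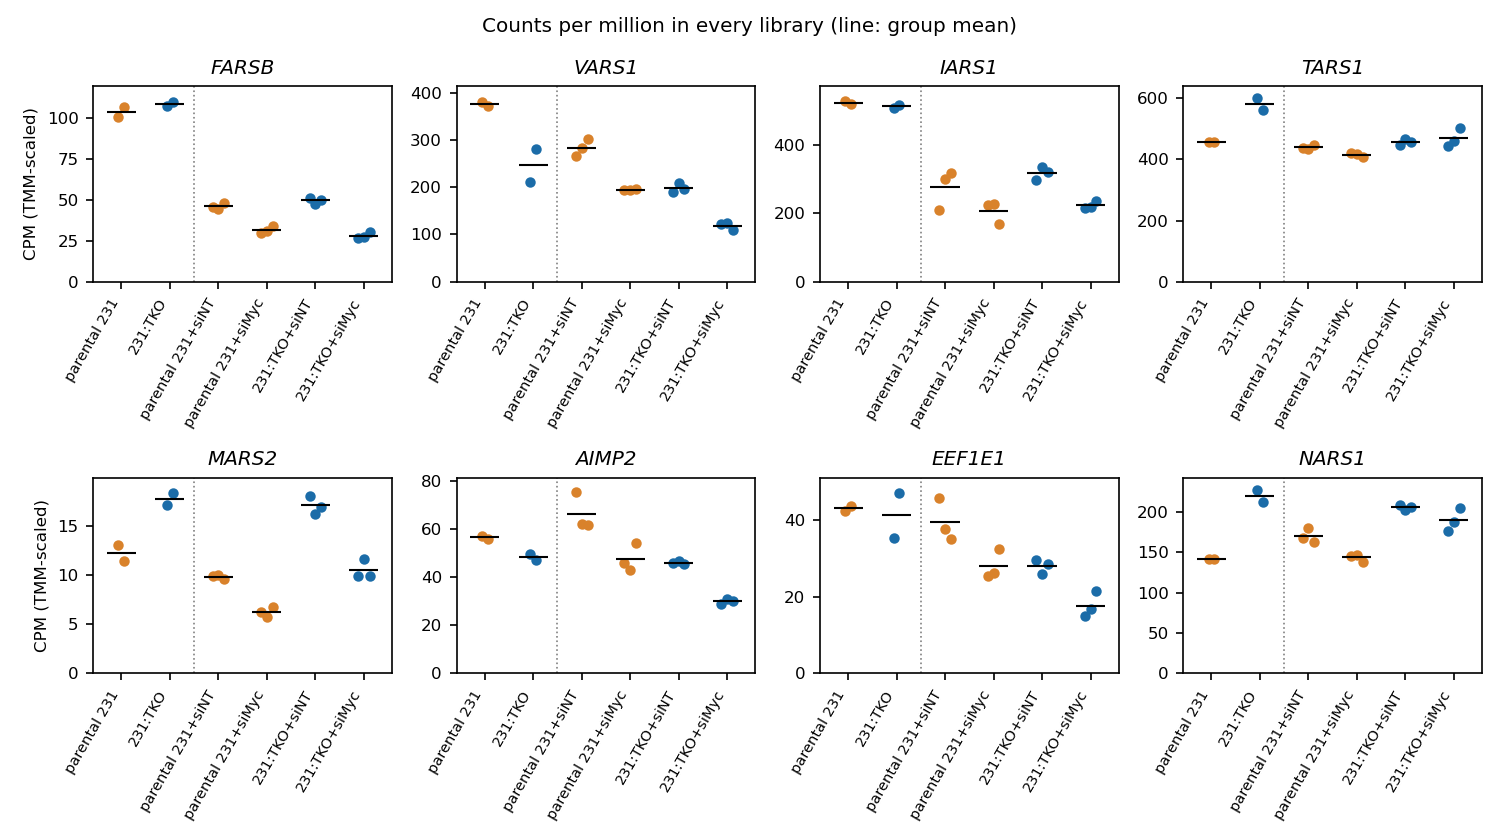
CPM of 8 genes in every library by group, each point 1 replicate (blue 231:TKO, orange parental 231) and each line a group mean, with a dotted line between untreated and siRNA-treated libraries. FARSB, VARS1, MARS2, AIMP2 and EEF1E1 are lower with siMyc in both populations, the TARS1 groups overlap in 231:TKO and are slightly lower with siMyc in parental 231, and 1 siNT and 1 siMyc library of parental 231 are low in IARS1.

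Summed over each class, TPM was lower with siMyc in 231:TKO cells. In 231:TKO cells the 19 cytosolic enzymes summed to between 2339 and 2477 TPM with siNT and between 2036 and 2130 TPM with siMyc, and the 16 mitochondrial enzymes to between 460 and 467 TPM and between 406 and 415 TPM. The scaffolds summed to between 170 and 180 TPM and between 107 and 126 TPM. None of these 3 pairs of ranges overlapped. In parental 231 cells the cytosolic sum was between 2207 and 2583 TPM with siNT and between 1926 and 2175 TPM with siMyc, and the mitochondrial sum between 396 and 467 TPM and between 360 and 406 TPM, so that the mitochondrial ranges overlapped. Without the pair that stood apart, the parental 231 sums were 2543 and 2583 TPM against 2143 and 2175 TPM for the cytosolic enzymes, and 467 and 449 TPM against 401 and 406 TPM for the mitochondrial enzymes, with no overlap. The ratio of the cytosolic to the mitochondrial sum lay between 5.09 and 5.34 in 231:TKO+siNT and between 4.97 and 5.14 in 231:TKO+siMyc, which overlap. In parental 231 it lay between 5.44 and 5.75 with siNT and between 5.34 and 5.36 with siMyc, without overlap. The ratio was lower in 231:TKO than in parental 231, without overlap, with siNT, with siMyc and in untreated cells (4.59 and 4.46 against 4.75 and 4.82). IARS2 alone made up a large part of the mitochondrial sum. Its group mean was 292 of 656 TPM in untreated parental 231 and 336 of 685 TPM in untreated 231:TKO. The ratio therefore does not describe the mitochondrial enzymes as a whole. The siRNA-treated parental 231 libraries were also counted on another Ensembl release than those of 231:TKO, but scaled with the same gene lengths. These ratios were not tested.

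**Figure D3:**
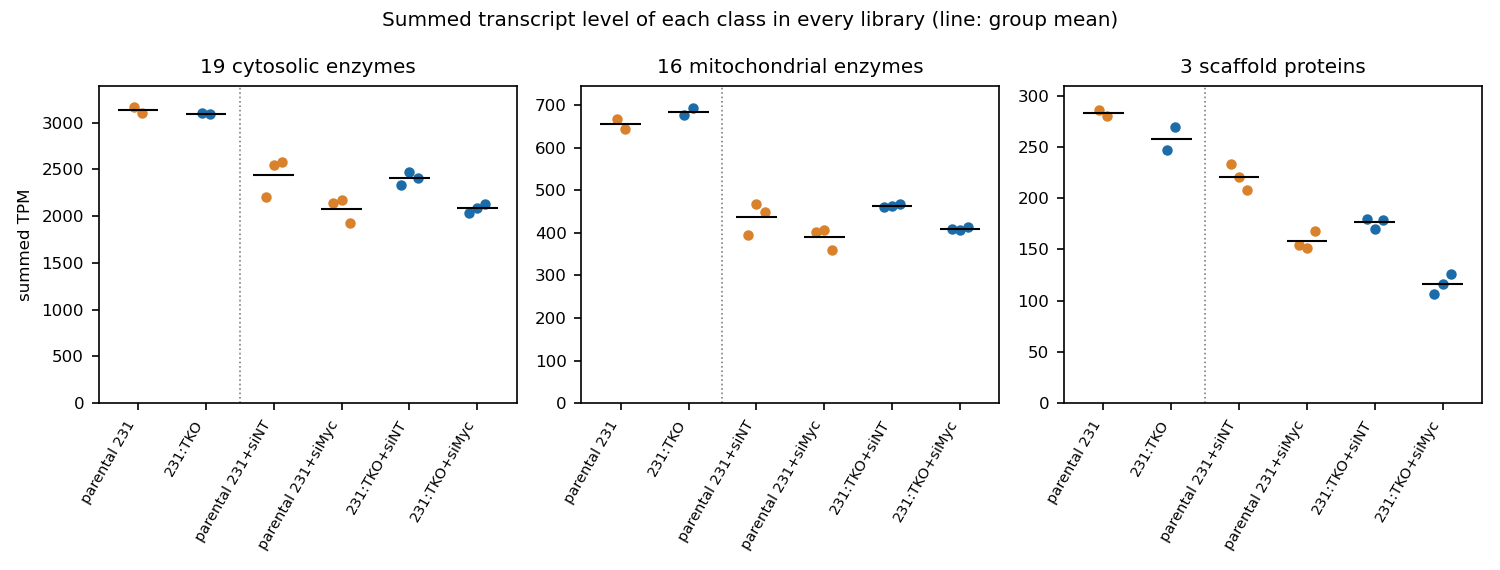
Summed TPM of the 19 cytosolic enzymes, the 16 mitochondrial enzymes and the 3 scaffolds in every library, by group, with lines at group means and a dotted line between untreated (single reads) and siRNA-treated (read pairs) libraries. The siMyc points lie below the siNT points of the same population, apart from an overlap in the mitochondrial panel of parental 231.

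Whether loss of TXNIP alone altered the synthetases was asked in untreated cells. In 231:TKO against parental 231, 2 of the 38 genes were higher and 2 lower, close to the shares over all 19965 genes, 5.43% higher and 4.18% lower. All 4 were cytosolic, but so few calls do not set the classes apart. NARS1 (ENSG00000134440, chr18:57600656-57622213, minus strand) was at 142 and 142 CPM in parental 231 and at 227 and 212 CPM in 231:TKO, a log2 fold change of 0.63 ± 0.06 (adjusted p = 0.0106). TARS1 was at 456 and 458 CPM in parental 231 and at 600 and 563 CPM in 231:TKO (0.35 ± 0.06, adjusted p = 0.0349). The other genes in the same 20 Mb of chromosome as NARS1 had a median log2 fold change of 0.58, and those around TARS1 one of 0.28, so the neighbourhoods of both genes were higher as well. Whether the copy number of these regions differed was not tested.

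CARS1 and QARS1 were lower. CARS1 was at 105 and 106 CPM in parental 231 and at 86.5 and 82.2 CPM in 231:TKO (-0.32 ± 0.06, adjusted p = 0.0406), and QARS1 at 217 and 216 CPM against 176 and 177 CPM (-0.29 ± 0.06, adjusted p = 0.0378). Their neighbourhoods were at medians of -0.04 and 0.03. VARS1 was at 382 and 373 CPM in parental 231 and at 210 and 282 CPM in 231:TKO, so its 231:TKO replicates lay well below the others but apart from each other (-0.62 ± 0.15, adjusted p = 0.0789).

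No mitochondrial enzyme passed (0 of 16 by edgeR and by DESeq2), nor did any scaffold. By edgeR, 3 mitochondrial enzymes had an unadjusted p under 0.05, beside 5164 of all 19965 genes. MARS2 was nearest, at 13.1 and 11.4 CPM in parental 231 and 17.1 and 18.4 CPM in 231:TKO (0.53 ± 0.13, adjusted p = 0.0638), with the other genes of its 20 Mb at a median of 0.42. Medians were 0.01 for the cytosolic enzymes, 0.08 for the mitochondrial enzymes and -0.06 for the scaffolds. Leaving out a replicate left 1 library in its group, which was then assumed to vary like the other group. The 231:TKO replicates lay further apart (chi-square per degree of freedom 38.8) than the parental 231 replicates (2.02). The number of calls in such fits turned on the group that gave the spread, and they are not counted here.

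The populations could also be compared with siNT in both, where the 231:TKO and parental 231 libraries were counted on different Ensembl releases, which gave IARS1, YARS1 and AIMP1 other lengths. In 231:TKO+siNT against parental 231+siNT, 4 of the 38 genes were higher and 14 lower, against 16.1% and 20.7% of 23310 genes. Both directions occurred among the mitochondrial enzymes, with 3 higher and 4 lower, while the cytosolic enzymes had 1 higher and 8 lower and the scaffolds 2 lower. Medians were near 0 for the enzymes, at -0.03 in both classes, and at -0.49 for the scaffolds. Without parental 231+siNT replicate 1, the library of the pair, 3 cytosolic enzymes were higher and 8 lower, and 5 mitochondrial enzymes were higher and 5 lower. All 18 genes called kept their call and direction without that library, and the largest shift among them was 0.14 (log2, EEF1E1). The cytosolic count was 3 without 231:TKO+siNT replicate 1 or 3, and the mitochondrial count 4 without replicate 1. Shares over all genes are not given for the fits with a library left out.

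FARSA (chr19:12922479-12934037, minus strand) was at 239, 216 and 231 CPM in parental 231+siNT and at 121, 127 and 119 CPM in 231:TKO+siNT, a log2 fold change of -0.89 ± 0.09 (adjusted p = 1.35e-05). FARSB, the other subunit of the same enzyme, was at 45.4, 44.4 and 47.8 CPM against 51.2, 47.5 and 49.9 CPM (0.12 ± 0.09, adjusted p = 0.327). Thus the subunits did not move together between the populations, and in untreated cells FARSA was at 96.1 and 88.9 CPM in parental 231 and at 86.8 and 91.5 CPM in 231:TKO, with overlap. VARS1 (-0.51 ± 0.09), RARS1 (-0.46 ± 0.09) and CARS1 (-0.39 ± 0.10) were the next lowest cytosolic enzymes. The neighbourhood of FARSA was at -0.32, that of VARS1 at -0.42, that of RARS1 at -0.08 and that of CARS1 at -0.15. NARS1 was the 1 cytosolic enzyme that was higher, at 0.28 ± 0.08 (adjusted p = 0.0213), and its neighbourhood was at 0.01 in this comparison.

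MARS2 was at 9.88, 10.0 and 9.60 CPM in parental 231+siNT and at 18.1, 16.3 and 17.0 CPM in 231:TKO+siNT, a log2 fold change of 0.81 ± 0.10 (adjusted p = 7.74e-05) beside a neighbourhood median of 0.37. CARS2, at 0.53 ± 0.09 (neighbourhood 0.20), and EARS2, at 0.36 ± 0.12 (neighbourhood -0.09), were also higher. FARS2, for phenylalanine, was at 31.0, 25.1 and 25.1 CPM in parental 231+siNT and at 15.5, 15.4 and 13.6 CPM in 231:TKO+siNT (-0.86 ± 0.11, adjusted p = 0.000147), and its neighbourhood was at -0.46. YARS2 was at 25.7, 23.9 and 23.4 CPM against 14.5, 15.1 and 13.7 CPM (-0.75 ± 0.10, adjusted p = 0.000117), although the genes around it were at 0.13. SARS2 (-0.45 ± 0.12) and NARS2 (-0.35 ± 0.10) were lower too. Of the scaffolds, AIMP2 had -0.52 ± 0.10 (neighbourhood -0.31) and EEF1E1 -0.49 ± 0.11 (neighbourhood -0.46), while AIMP1 did not pass (-0.14 ± 0.10).

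**Figure D4:**
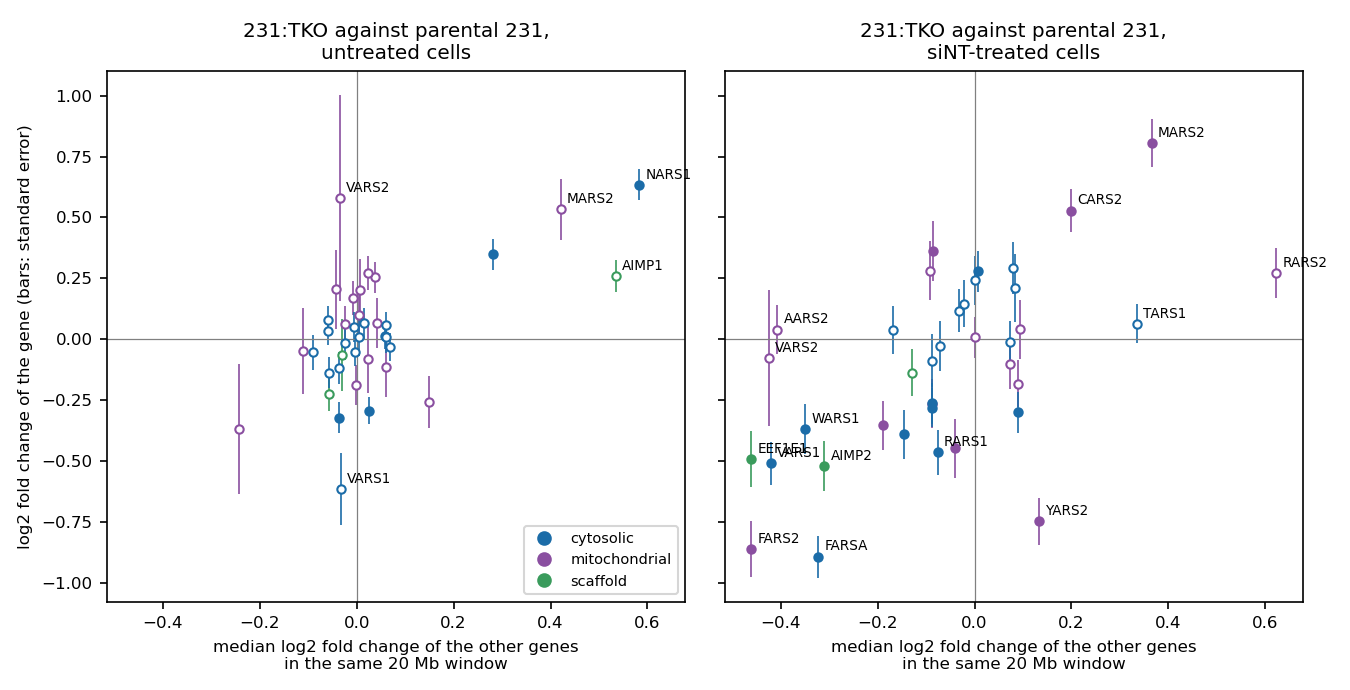
Log2 fold change of each gene between 231:TKO and parental 231 (vertical axis, bars are standard errors) against the median log2 fold change of the other genes in its 20 Mb window (horizontal axis), in untreated cells on the left and siNT-treated cells on the right. Filled points passed an adjusted p of 0.05. NARS1 and MARS2 on the left, and FARS2, FARSA, VARS1, EEF1E1, AIMP2 and MARS2 on the right, lie in windows shifted the same way, and YARS2 does not.

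With siMyc in both populations, 5 of the 38 genes were higher and 13 lower in 231:TKO, against 18.8% and 21.7% of 23561 genes. This comparison shares no library with the siNT comparison but has the same split of Ensembl releases between the populations, so it does not separate the 2 either. FARSA (-0.96 ± 0.10), YARS2 (-0.98 ± 0.11), FARS2 (-0.81 ± 0.10) and VARS1 (-0.73 ± 0.09) were the 4 lowest enzymes, as with siNT, and here MARS2 (0.73 ± 0.12), CARS2 (0.53 ± 0.09) and NARS1 (0.39 ± 0.09) the 3 highest. Of the scaffolds, AIMP2 (-0.68 ± 0.11) and EEF1E1 (-0.68 ± 0.14) were lower. AARS2, the mitochondrial alanine enzyme, and RARS2, the mitochondrial arginine enzyme, passed here and not with siNT, at 0.27 ± 0.10 and 0.31 ± 0.10, but the difference between the 2 comparisons is the interaction above, which neither passed. RARS2 lay in a window with a median of 0.72, the highest of any of the 38, and AARS2 in one with a median of -0.45. In untreated cells the window of RARS2 was at -0.24. The neighbourhoods of FARSA and VARS1 were at -0.29 and -0.44. Without parental 231+siMyc replicate 3, the library of the pair, 2 cytosolic enzymes were higher and 8 lower, and 4 mitochondrial enzymes were higher and 5 lower, and all 18 genes called kept their call and direction. Without 231:TKO+siMyc replicate 3 or parental 231+siMyc replicate 1, 4 mitochondrial enzymes passed. Shares over all genes are not given for these fits either.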

How the data were processed

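Polyadenylated RNA was sequenced with a stranded kit in 16 libraries of MDA-MB-231 cells. The authors aligned reads to GRCh38 with STAR and deposited raw counts per gene from featureCounts 1.6.3, without normalization. Per the file headers, Ensembl release 102 was used, and release 104 for the siRNA-treated parental 231 libraries. All columns of values were used (0 left out).

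Libraries were grouped by their labels. In each comparison, fitted on its own libraries, a gene was kept if its counts added up to more than 5, and edgeR 4.0.16 (R 4.3.3) was run (TMM scaling, robust quasi-likelihood test, no covariate), adjusted over all genes by Benjamini-Hochberg at 0.05. The interaction was fitted on the 12 siRNA libraries. Standard errors (±) are the log2 fold change divided by the square root of F. CPM are TMM-scaled. TPM used the gene lengths of release 102 for every library. Total counts ranged from 18953668 to 59799444, where 3 counts are at most 0.158 CPM.

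Members and gene lists were chosen with earlier results of these data known. All 38 members could be named, and up to 4 per direction and group were given in full. Of other lists, at most 2 per direction were named, with MYC, TXNIP and ATF4. Neighbourhoods were windows of 20 Mb with at least 15 other genes. Alternatives were DESeq2 1.42.0, its size factors, other filters, a threshold of 0.01, a replicate block, gene length offsets, window offsets, 1 fit of the 12 siRNA libraries and each replicate left out. The pair of parental 231 libraries was left out or given a factor after the data had been seen. The fits were tested on simulated data.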

Additional observations from a re-analysis of the deposited data

How the results depend on the processing

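The replicate numbers did not pair the libraries: same-numbered replicates had deviations correlated between -0.78 and 0.60 in the parental 231 knockdown and at 0.026 in untreated cells. With a replicate block, 1 cytosolic enzyme was called in untreated cells, 12 cytosolic and 7 mitochondrial enzymes in the 231:TKO knockdown, and 0 and 0 in the parental 231 knockdown. 

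In 231:TKO against parental 231, the cytosolic count was 0 at an adjusted p of 0.01 and the mitochondrial count 2 with no filter. The cytosolic median was -0.071 with gene length offsets. Leaving out 1 replicate, which leaves 1 library in its group and takes the spread from the other group alone, gave 0 to 8 cytosolic and 0 to 7 mitochondrial calls, mitochondrial medians of 0.030 to 0.12, and SARS1 at -0.10 to 0.093. In the 231:TKO knockdown, 1 fit of the 12 siRNA libraries called 4 mitochondrial enzymes, and leaving out 1 replicate gave 4 to 7, with cytosolic medians of -0.26 to -0.15. In the parental 231 knockdown, cytosolic and mitochondrial counts were 0 and 0 at 0.01, 0 and 0 with DESeq2 size factors, and 6 and 3 in 1 fit of the 12 siRNA libraries. Cytosolic counts were 5 with DESeq2, 2 with no filter, 2 with more than 5 counts in every library and 4 with gene length offsets. Without the pair that stood apart they were 12 and 6 with a cytosolic median of -0.20, and with its factor 15 and 7. Leaving out 1 replicate gave 0 to 1 cytosolic and 0 mitochondrial calls and cytosolic medians of -0.23 to -0.16.

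In 231:TKO+siNT against parental 231+siNT, 3 cytosolic and 4 mitochondrial enzymes passed 0.01. Gene length offsets gave medians of -0.16 and 0.023, with GARS1 at -0.32. Window offsets gave 5 cytosolic calls, a mitochondrial median of -0.12, TARS1 at -0.27 and RARS2 at -0.34. Leaving out 1 replicate gave 3 to 11 cytosolic calls, 4 to 10 mitochondrial calls, and medians of -0.11 to 0.030 and -0.048 to 0.033. In 231:TKO+siMyc against parental 231+siMyc, 4 mitochondrial enzymes passed 0.01. Gene length offsets gave 15 cytosolic calls, medians of -0.26 and 0.0023, and LARS1 at -0.21. Window offsets gave medians of -0.14 and -0.042 and RARS2 at -0.38. Without the pair, medians were -0.080 and -0.032. Leaving out 1 replicate gave cytosolic medians of -0.080 to -0.045, 4 to 9 mitochondrial calls and mitochondrial medians of -0.032 to 0.068. For the interaction, the mitochondrial median was -0.060 without the pair and -0.028 to 0.030 with 1 replicate left out, and the cytosolic median -0.11 to 0.023. Shares over all genes are not given for most of these settings, and the cause of these changes was not tested.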
